A study of Mus musculus with 9 samples.

Results

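The renal cortex of db/db mice given rosiglitazone (dbR) was compared with that of lean control mice, to describe which transcripts still differed from lean animals after 8 weeks of the drug. The comparison used 6 of the 9 RNA libraries of the series, 3 from dbR and 3 from control mice, each made from the cortex of 1 mouse. FPKM values (fragments per kilobase of transcript, scaled to the mapped fragments of each library) were summed over the transcripts of each gene, and the 14537 of 21950 genes with a mean of at least 0.1 FPKM over the 9 libraries were tested. The other 3 libraries came from db/db mice given vehicle (dbdb). They entered the estimate of the spread, and their values are set beside those of the dbR mice.

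The dbR mice were C57BL/KsJ db/db males, homozygous for the db mutation of the leptin receptor gene Lepr, and received 20 mg/kg/day of rosiglitazone by gavage between 7 and 15 weeks of age. The dbdb mice had the same genotype and received vehicle over the same weeks. The control mice were nondiabetic db/m littermates, heterozygous for db, which also received vehicle. All mice therefore carried at least 1 db allele. All tissue was taken at 15 weeks of age. No lean mouse received rosiglitazone, and dbR mice differed from control mice in genotype, diabetes, obesity and drug at once, which that comparison cannot tell apart. By design the dbdb mice differed from the dbR mice in the drug only, so the direct comparison with them concerns the drug. Genotype, diabetes and obesity cannot be told apart here.

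Rosiglitazone is a thiazolidinedione that activates PPARγ, a nuclear receptor which pairs with RXR and acts most strongly in fat cells, where it promotes lipid storage and insulin sensitivity. PPARα, its relative, is the main PPAR of the proximal tubule and governs fatty acid oxidation there. The cortex consists mostly of proximal tubule, the segment that reabsorbs filtered glucose, amino acids and phosphate, secretes organic anions and makes glucose. Mice lacking functional leptin receptor overeat, become obese and develop type 2 diabetes with kidney disease.

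Marker lists were read for the labelled tissue. All 16 proximal tubule markers passed the filter of 0.1 FPKM, which alone does not identify the tissue. The most abundant, the androgen-regulated protein gene Kap, was at 5278, 5728 and 4796 FPKM in the libraries where it was lowest, those of the dbdb mice. Of the 16, 2 were called higher and 4 lower in dbR against control by the test below (37.5%, against 24.1% of all genes). Their sum, Kap included, was 50119 to 61052 FPKM in control and 20219 to 22690 FPKM in dbR libraries. Summed FPKM per library ranged from 594838 to 730057 and the share of mitochondrially encoded genes from 26.9 to 32.8%. The relative depth read from the smallest values of each library lay between 0.951 and 1.03 in control and between 0.914 and 1.14 in dbR libraries, with control replicate 1 set at 1. The control replicate 3 library stood apart in 10 genes, among them Rpl12 and Hsp90aa1, which were below 0.1 times their value in every other library. None of these 10 genes passed the test. In bulk cortex, fewer cells of a type and less RNA per cell cannot be told apart.

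A gene was called at an adjusted p below 0.05 (limma on log2(FPKM + 0.1), Benjamini-Hochberg over the 14537 genes). In dbR against control, 3497 genes (24.1%) were called, 1786 higher (12.3%) and 1711 lower (11.8%), and 5355 had an unadjusted p under 0.05. The libraries of both groups did not overlap for 6093 genes (41.9%). Most differences were small, since the median size among called genes was 0.51 on the log2 scale and 531 of them reached 2-fold, 282 higher and 249 lower. The median log2 fold change of all tested genes was -0.0014. For dbdb against control, which shares the 3 control libraries and so is not independent, 3840 genes were called (26.4%), 1899 higher (13.1%) and 1941 lower (13.4%), and the libraries did not overlap for 6166 genes (42.4%). Tested directly, dbR and dbdb mice differed in 108 genes (0.743%), 82 higher and 26 lower in dbR mice, and did not overlap in 3294 (22.7%). This direct count rested on single libraries. It was 2 without dbR replicate 2, 10 without dbR replicate 3, 36 without dbdb replicate 1 and 31 without dbdb replicate 2, and with sums equalised outside the mitochondrial genes it was 52 higher and 55 lower. Among the named genes with a direct call, Ecm1 and Npr3 kept it under each of 19 alternatives, and every other one lost it without dbR replicate 2.

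**Figure D1:**
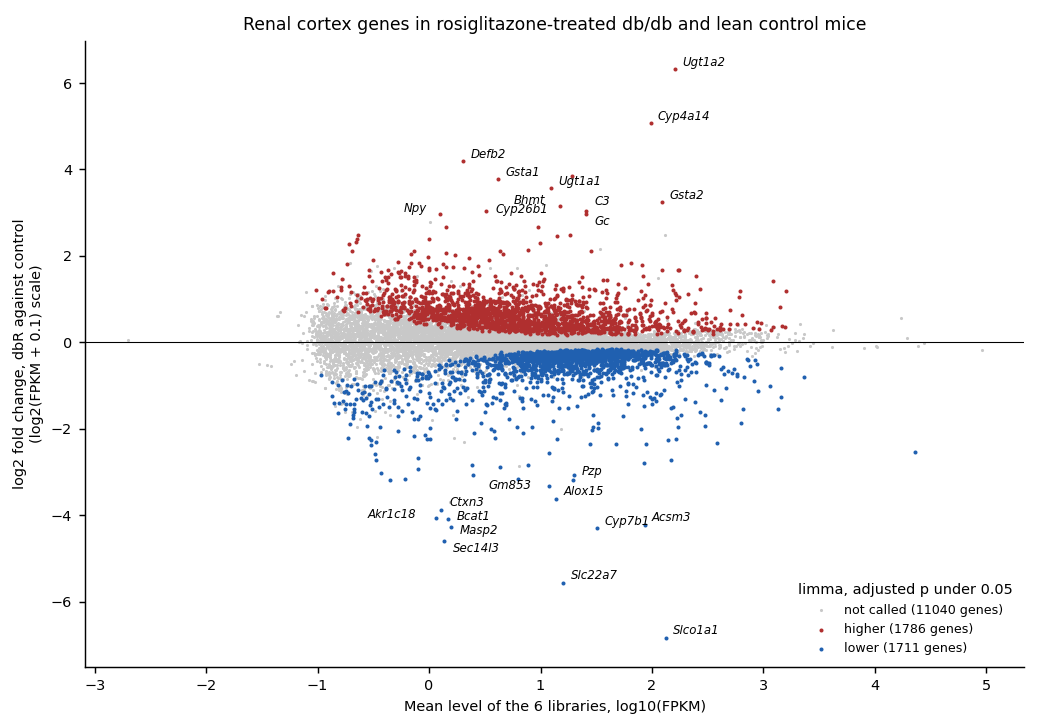
Each dot is 1 tested gene, with its mean FPKM over the 3 dbR and 3 control libraries on a log10 x axis and its log2 fold change, dbR over control, on the y axis. The 1786 genes called higher are red, the 1711 called lower blue and the rest grey, and most of the largest rises and falls carry their symbols, from Ugt1a2 at 6.32 to Slco1a1 at -6.84.

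The steepest fall was that of Slco1a1 (chromosome 6, 141907282 to 141946962 in GRCm38), whose product carries organic anions across the brush border of the proximal tubule. It read 209.5, 201 and 382 FPKM in the control libraries and 1.89, 1.35 and 3.58 FPKM in the dbR libraries (log2 fold change -6.84, standard error 0.552, adjusted p = 4.48e-05, limma). All 3 dbR libraries were near the bottom of the scale and far below every control library. Vehicle-treated dbdb mice read 3.49, 3.16 and 14.9 FPKM, also far below the control libraries. The other large falls included the organic anion transporter Slc22a7 (-5.57), the oxysterol 7α-hydroxylase Cyp7b1 (-4.301), the acyl-CoA synthetase Acsm3 (-4.23), the lipoxygenase Alox15 (-3.62) and the protease inhibitor Pzp (-3.19). The same group held Sec14l3 (-4.59), the 20α-hydroxysteroid dehydrogenase Akr1c18 (-4.06), Gm853 (-3.32), Ctxn3 (-3.88), the branched-chain aminotransferase Bcat1 (-4.08) and the lectin-pathway protease gene Masp2 (-4.27). For the last 3 a single dbR library was below 0.1 times every other library, replicate 1 for Ctxn3 and replicate 2 for Bcat1 and Masp2.

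The steepest rise was that of Ugt1a2 (chromosome 1, 88200601 to 88218997), a UDP-glucuronosyltransferase, which conjugates lipophilic compounds with glucuronic acid. Its level was 5.73, 4.11 and 2.18 FPKM in control and 339, 388 and 218 FPKM in dbR libraries (log2 fold change 6.32, standard error 0.363, adjusted p = 6.78e-06, limma). Every dbR library was above every control library by a wide margin. Genes of the Ugt1a cluster share their last exons, so how their reads were divided by the authors' counting is uncertain. The gene with the smallest adjusted p was Cyp4a14 (chromosome 4, 115486200 to 115496142), a fatty acid ω-hydroxylase and a classic target of PPARα, at 4.67, 6.27 and 5.7001 FPKM in control and 173, 179 and 215 FPKM in dbR libraries (log2 fold change 5.07, standard error 0.136, adjusted p = 7.56e-08). The dbR libraries lay close together and did not come near the control range. Large rises were also found for the defensin Defb2 (4.19), the glutathione transferases Gsta1 (3.78) and Gsta2 (3.24), Ugt1a1 (3.57), the betaine-homocysteine methyltransferase Bhmt (3.16), the complement component C3 (3.04), the retinoic acid hydroxylase Cyp26b1 (3.04), neuropeptide Y Npy (2.97) and the vitamin D-binding protein gene Gc (2.96). Gsta1 and Gsta2 are close copies, so the division of reads between them is uncertain as well. Among the 8 smallest adjusted p were also the falls of Ugt2b37 (-2.26), the lanosterol demethylase Cyp51, the phospholipid flippase Atp11a (-2.24) and Gclm, the regulatory subunit of glutathione synthesis (-1.23), and the rises of Ecm1 and of the pyruvate dehydrogenase kinase Pdk1 (1.41).

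**Figure D2:**
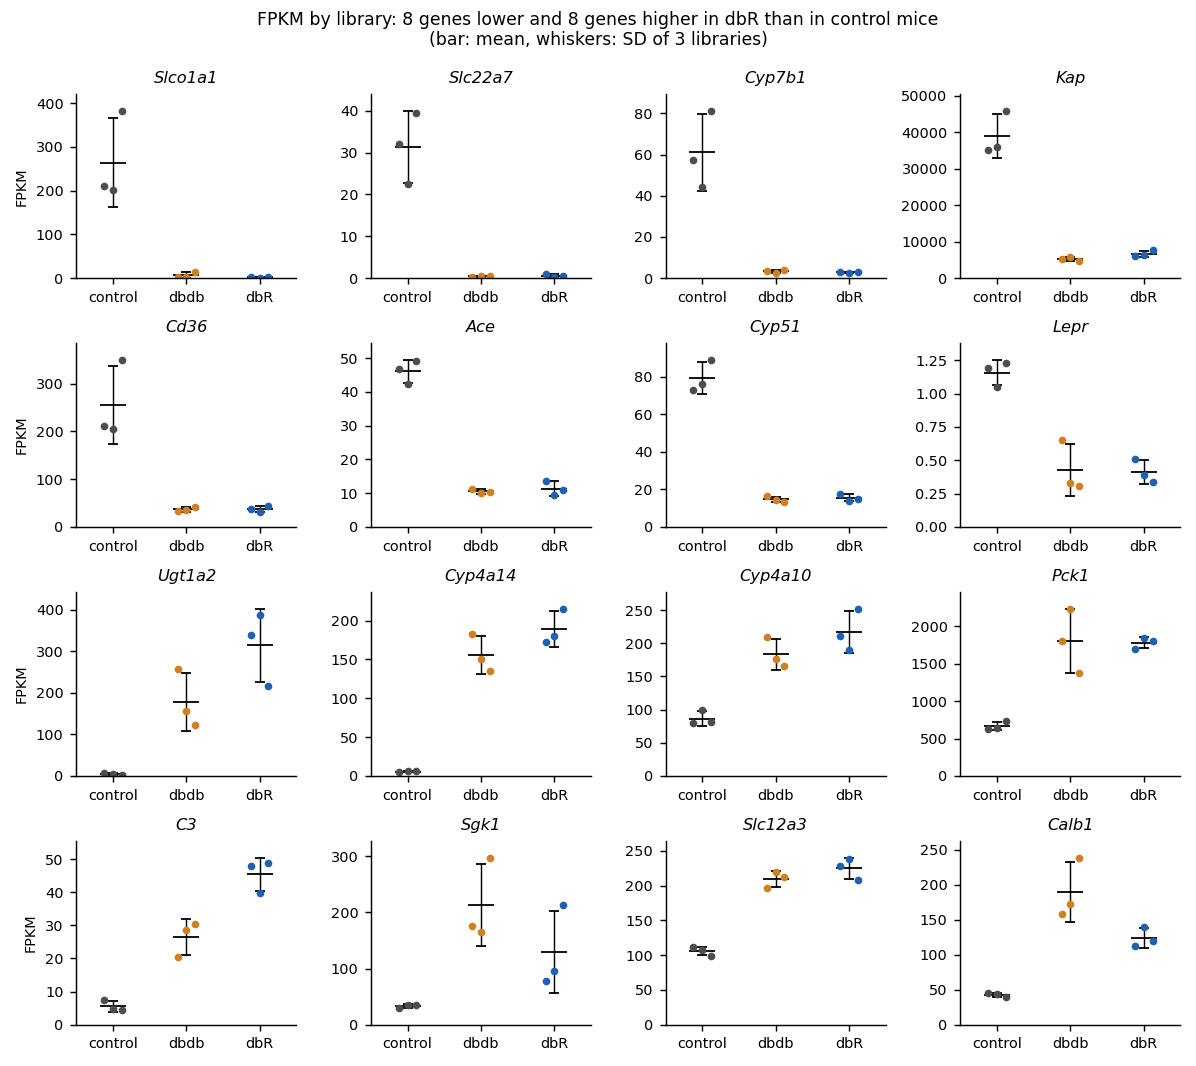
FPKM (linear axis from 0) of 16 genes in the control, dbdb and dbR libraries, with a dot for each library, a bar at the group mean and whiskers of 1 SD (n = 3). The upper genes, from Slco1a1 to Lepr, were lower in both db/db groups than in control, and the remaining 8, from Ugt1a2 to Calb1, were higher in both.

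Lepr, the gene that carries the db mutation, was lower in the dbR mice. It read 1.19, 1.05 and 1.23 FPKM in control and 0.512, 0.3904 and 0.335 FPKM in dbR libraries (log2 fold change -1.31, standard error 0.249, adjusted p = 0.00453, limma), and 0.652, 0.331 and 0.304 FPKM in dbdb libraries. All 6 db/db libraries were below the 3 control libraries. The db mutation changes the splicing of the long receptor form, which gene-level FPKM do not resolve, so the fall does not read the allele itself. The neighbouring transcript Leprot did not pass (0.16, adjusted p = 0.122) and the receptor-associated kinase Jak2 fell (-0.30), a call lost under 4 of 17 alternative settings.

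**Figure D3:**
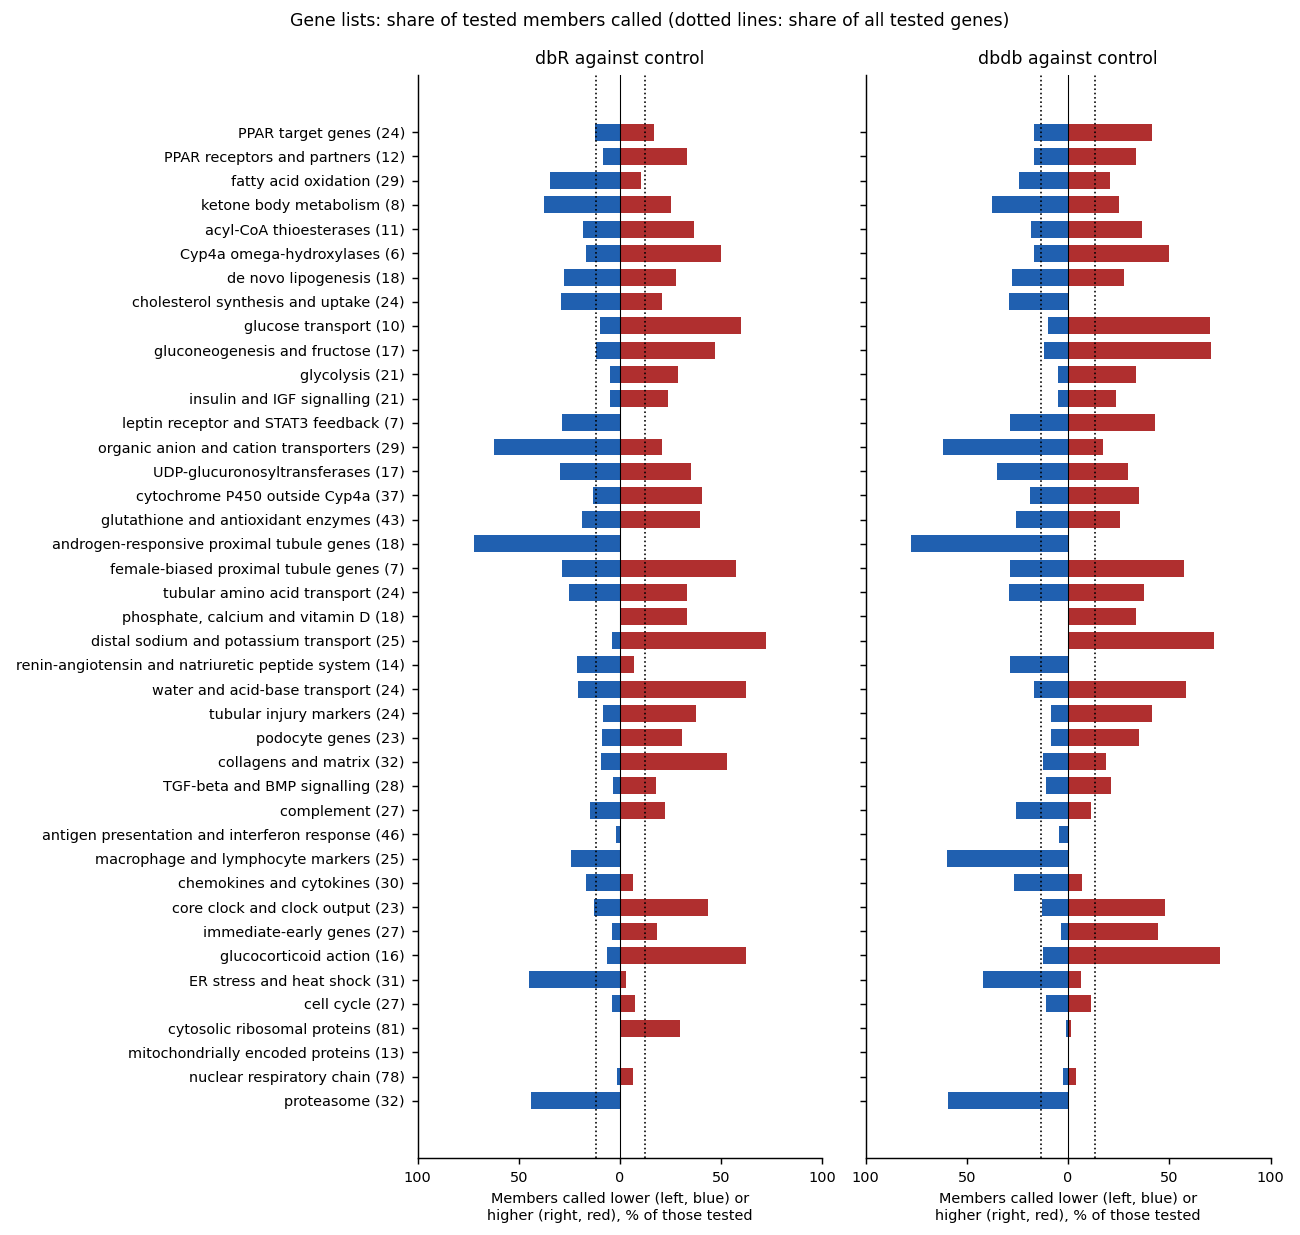
Share of the tested members of 41 gene lists that were called higher (red, to the right) or lower (blue, to the left), in percent, for dbR against control and for dbdb against control. Dotted lines mark the shares over all 14537 genes, 12.3% higher and 11.8% lower in dbR against control, and both panels use the same 3 control libraries.

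The nuclear receptors through which the drug and fatty acids act, with their partners, were called in 5 of 12 cases (41.7%, against 24.1% of all genes), 4 higher and 1 lower. Pparg itself was low, at 0.812, 2.26 and 0.563 FPKM in control and 0.583, 0.673 and 1.1996 FPKM in dbR libraries (log2 fold change -0.35, standard error 0.436, adjusted p = 0.602), and the groups overlapped. Ppara rose, from 37.04, 34.96 and 39.9 FPKM in control to 50.3, 52.6 and 51.995 FPKM in dbR libraries (log2 fold change 0.47, standard error 0.0802, adjusted p = 0.00254, limma), with no overlap, and read 68.3, 67.7 and 56.6 FPKM in dbdb libraries. Rxra also rose (0.24, a call lost under 10 of 17 alternative settings), and the oxysterol receptor Nr1h3 fell (-0.43, a call lost in its most abundant transcript). Read from the most abundant transcripts, 2 of the 12 rose.

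Of 24 tested PPAR target genes, 4 rose and 3 fell in dbR against control, 29.2% against 24.1% of all genes, with a median log2 fold change of 0.13. With sums equalised outside the mitochondrial genes 7 rose and 2 fell, and with upper-quartile scaling 6 rose and 3 fell. The vehicle-treated dbdb mice had 10 rises and 4 falls against control, 58.3% against 26.4% of all genes. The largest change was a fall. Cd36, the fatty acid translocase that takes up long-chain fatty acids, read 211, 206 and 349 FPKM in control and 36.7, 32.2 and 44.3 FPKM in dbR libraries (log2 fold change -2.72, standard error 0.194, adjusted p = 2.75e-05). The dbR libraries were far below the control libraries and close to the dbdb libraries, at 33.2, 35.3 and 41.5 FPKM. Lpl, the lipase that frees fatty acids from circulating triglyceride, fell as well (-1.36), while the uncoupling protein Ucp2 (0.64) and Pdk4, the kinase that spares pyruvate when fat is burned (0.62), rose. Pdk4 differed between treated and untreated mice, at 1.202, 1.503 and 1.3003 FPKM in control, 3.99, 3.64 and 5.21 FPKM in dbdb and 1.95, 2.18 and 2.14 FPKM in dbR libraries. The dbR libraries lay between the others without overlap, and the direct difference from dbdb was called (log2 fold change -0.98, standard error 0.144, adjusted p = 0.0254), but not without dbR replicate 2 (adjusted p = 0.109), nor without dbR replicate 1 or 3 or dbdb replicate 1. That direct call was also lost without a filter on low values, with the replicate block and without the variance trend. Fabp4, an adipocyte and endothelial lipid chaperone, was called higher when dbR was tested directly against dbdb (0.82, adjusted p = 0.04504, a call lost under 10 of 19 alternatives, at 0.189 without dbR replicate 2) and was not called against control (0.32, adjusted p = 0.158).

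The Cyp4a ω-hydroxylases, which oxidise the far end of fatty acids, rose in 3 of 6 tested genes and fell in 1 (66.7% called, against 24.1% of all genes). Beside Cyp4a14, Cyp4a10 rose from 79.2, 98.9 and 80.6 FPKM in control to 211, 189.9 and 252 FPKM in dbR libraries (log2 fold change 1.33, standard error 0.128, adjusted p = 0.000108), with no overlap. Cyp4a12a, the androgen-dependent male form, fell from 108, 109.6 and 164 FPKM to 25.1, 27.9 and 41.6 FPKM (log2 fold change -2.01, standard error 0.249, adjusted p = 0.000456). Cyp4a31, the member with the highest mean level, read 168, 165 and 158 FPKM in control and 181, 166 and 175 FPKM in dbR libraries, which overlap, and did not pass (log2 fold change 0.09, adjusted p = 0.296). The Cyp4a genes are near-identical copies, so reads may be divided among them unevenly. Among the acyl-CoA thioesterases, Acot3 (1.24) and Acot1 (0.52) rose, Acot12 (-0.95) and Acot9 (-0.73) fell, and 6 of 11 were called (54.5%), 4 of them higher and 2 of those without control replicate 3.

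Fatty acid oxidation enzymes fell more often than they rose in dbR cortex, with 10 of 29 lower and 3 higher (44.8% called, against 24.1% of all genes) and a median log2 fold change of -0.13, but with FPKM scaled to equal sums outside the mitochondrial genes 6 were lower and 7 higher. The carnitine octanoyltransferase Crot (-1.28) and the peroxisomal bifunctional enzyme Ehhadh (-0.87) fell, whereas the mitochondrial thiolase Acaa2 (0.77) and the muscle-type carnitine palmitoyltransferase Cpt1b (0.68) rose. Of the 29 genes 7 fell and 6 rose in dbdb against control, 44.8% against 26.4% of all genes.

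Of 8 ketone body genes 2 rose and 3 fell, 62.5% against 24.1% of all genes. Bdh1, which interconverts the ketone bodies, read 50.2, 38.4 and 67.5 FPKM in control and 14.7, 11.2 and 12.8 FPKM in dbR libraries (log2 fold change -1.97, standard error 0.184, adjusted p = 9.63e-05, limma). Every dbR library was below every control library. Oxct1, the enzyme that allows tissues to burn ketone bodies (-0.66), and the thiolase Acat1 (-0.58) fell as well. The log2 fold changes of Bdh1, Oxct1 and Acat1 were -1.86, -0.66 and -0.82 in dbdb against control, all called.

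Cholesterol synthesis genes were called in both directions, 7 lower and 5 higher of 24, where 24.1% of all genes were called, while dbdb against control had 7 lower and 0 higher, where 26.4% of all genes were called. Cyp51 fell from 73.1, 76.2 and 89.1 FPKM in control to 17.6, 14.01 and 14.9 FPKM in dbR libraries (log2 fold change -2.35, standard error 0.109, adjusted p = 5.59e-06), and the isopentenyl diphosphate isomerase Idi1 (-1.96) and the sterol desaturase Sc5d (-0.88) fell with it. Every dbR library of Cyp51 was far below control, and the dbdb libraries read 16.3, 14.4 and 13.3 FPKM. The count of falls was 4 without control replicate 3 and 4 without dbR replicate 3, and the count of rises was 2 to 3 without control replicate 2 or 3 or dbR replicate 1 or 2.

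Fatty acid synthesis genes gave 5 rises and 5 falls of 18 (55.6% called, against 24.1% of all genes), and 3 falls with sums equalised outside the mitochondrial genes or without control replicate 1, dbR replicate 2 or dbR replicate 3. The desaturase Scd2 (1.29), the lipogenic regulator Thrsp (0.84) and the transcription factor Srebf1 (0.78) rose, and malic enzyme Me1, which supplies NADPH, fell (-1.09). Srebf1 read 7.84, 7.03 and 6.21 FPKM in control, 7.12, 8.37 and 8.02 FPKM in dbdb and 13.1, 12.1 and 11.1 FPKM in dbR libraries. The dbR libraries stood above both other groups, with a called difference from dbdb (log2 fold change 0.62, standard error 0.104, adjusted p = 0.0331, limma) that was lost under 11 of 19 alternatives (adjusted p = 0.153 without dbR replicate 2) and none between dbdb and control (adjusted p = 0.292).

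Of 17 tested genes of glucose production and fructose use, 8 rose, 2 fell and 7 did not pass in dbR against control (58.8% called, against 24.1% of all genes), with a median log2 fold change of 0.26. Pck1, the rate-limiting enzyme of gluconeogenesis, read 630.5, 645 and 728 FPKM in control and 1704, 1842 and 1805 FPKM in dbR libraries (log2 fold change 1.42, standard error 0.155, adjusted p = 0.0002296). G6pc, which releases free glucose, read 126, 163 and 199 FPKM in control and 319.6, 417 and 403 FPKM in dbR libraries (log2 fold change 1.24, standard error 0.154, adjusted p = 0.000479). For both genes every dbR library was above every control library, and the dbdb libraries reached similar levels, at 1808, 2236 and 1371 FPKM for Pck1 and 465, 425 and 409 FPKM for G6pc. Alanine aminotransferase Gpt rose (1.24) and the aldose reductase Akr1b3 fell (-1.22). Without control replicate 3 or dbR replicate 2, 5 members rose. Among dbdb mice 12 rose and 2 fell against control, 82.4% against 26.4% of all genes.

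Of 10 glucose transporters, 6 rose and 1 fell (70.0% called, against 24.1% of all genes), but neither of the main apical and basolateral carriers of the proximal tubule was called. The apical sodium-glucose cotransporter Slc5a2, the target of gliflozins, read 233, 198 and 204 FPKM in control and 232, 286 and 264 FPKM in dbR libraries (log2 fold change 0.30, standard error 0.116, adjusted p = 0.0884), and the groups overlapped. It gained a call under 3 of 17 alternatives. Slc2a2, the basolateral carrier, had a log2 fold change of -0.08 (adjusted p = 0.547). The insulin-responsive carrier Slc2a4 (1.09), Slc5a9 (0.83), the urate and fructose carrier Slc2a9 (0.80, a call lost without dbR replicate 2) and Slc2a1 (0.68) rose.

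In glycolysis, 6 of 21 genes rose and 1 fell (33.3% called, against 24.1% of all genes), with rises of the hexokinase Hk1 (0.86) and the pyruvate kinases Pkm (0.78) and Pklr (0.59, a call lost in its most abundant transcript). In insulin and IGF signalling, 5 of 21 rose and 1 fell, 28.6% against 24.1% of all genes. The transcription factors Foxo3 (0.82) and Foxo1 (0.38), the receptor substrate Irs1 (0.57) and the binding protein Igfbp4 (0.47) were among the rises. Foxo3 read 19.8, 17.5 and 17.8 FPKM in control and 35.3, 30.2 and 32.2 FPKM in dbR libraries, with no overlap, and 42.1, 42.3 and 40.5 FPKM in dbdb libraries. The energy-sensing kinase subunit Prkaa2 was called (-0.22), a call lost under 9 of 17 alternatives, and Prkaa1 read -0.10 (adjusted p = 0.362).

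Organic anion and cation transporters, which move drugs, urate and metabolites across the proximal tubule, were mostly lower, with 18 of 29 lower and 6 higher (82.8% called, against 24.1% of all genes) and a median log2 fold change of -0.38. In dbdb against control 18 fell and 5 rose, 79.3% against 26.4% of all genes. Slc22a7 read 32.1, 22.4 and 39.5 FPKM in control and 0.948, 0.318 and 0.515 FPKM in dbR libraries (log2 fold change -5.57, standard error 0.313, adjusted p = 6.78e-06), so that no dbR library reached 1 FPKM. The anion transporters Slc22a26 (-3.16) and Slc22a19 (-3.06) and the urate transporter Slc22a12 (-1.101) fell. Slc22a12 kept a high level, at 496, 446 and 522 FPKM in control and 229, 219.9 and 232 FPKM in dbR libraries, without overlap. Slc22a29 rose (1.55).

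Conjugating and oxidising enzymes split by family member. Of 17 UDP-glucuronosyltransferases 6 rose and 5 fell, 64.7% against 24.1% of all genes. Beside the rises of Ugt1a2 and Ugt1a1, the abundant Ugt2b forms fell, Ugt2b38 from 939, 869 and 1141 FPKM in control to 228, 300.3 and 278 FPKM in dbR libraries (log2 fold change -1.87, standard error 0.124, adjusted p = 1.65e-05) and Ugt2b37 from 239, 229.9 and 224 FPKM to 45.02, 44.7 and 55.3 FPKM (log2 fold change -2.26, standard error 0.0978, adjusted p = 4.09e-06). Neither overlapped, and these 2 genes are close copies. Of 37 tested cytochrome P450 genes outside Cyp4a, 15 rose and 5 fell (54.1% called, median 0.32). Falls included Cyp7b1, which read 57.5, 44.4 and 81.1 FPKM in control and 3.18, 2.69 and 2.87 FPKM in dbR libraries (log2 fold change -4.301, standard error 0.235, adjusted p = 6.09e-06), Cyp2a4 (-1.68) and the abundant Cyp4b1 (-1.27). Of 43 glutathione and antioxidant genes 17 rose and 8 fell (58.1% called), with Gsta2 at 22.2, 20.5 and 27.3 FPKM in control and 248, 253 and 170.2 FPKM in dbR libraries (log2 fold change 3.24, standard error 0.437, adjusted p = 0.0007198). Gsta4 (1.45) and Gstm6 (1.48) rose too, and Gclm fell from 168, 156 and 177 FPKM to 72.8, 66.4 and 73.9 FPKM (log2 fold change -1.23, standard error 0.0641, adjusted p = 5.65e-06). In dbdb against control 11 genes of that list rose and 11 fell, 51.2% against 26.4% of all genes.

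The androgen-responsive genes of the proximal tubule, which give the male mouse kidney its sex-specific programme, fell in 13 of 18 tested cases and rose in 0 in the dbR males, with a median log2 fold change of -1.32, where 11.8% of all genes were lower. In dbdb against control 14 fell and 0 rose (median -1.70), where 13.4% of all genes were lower. Kap read 34964, 35883 and 45755 FPKM in control, 5278, 5728 and 4796 FPKM in dbdb and 6173, 6194 and 7646 FPKM in dbR libraries (dbR against control, log2 fold change -2.54, standard error 0.189, adjusted p = 3.36e-05). Every db/db library was far below every control library. The dipeptidase Cndp2 (-2.33), Acsm3, Slco1a1, Cyp4a12a and Cyp4b1 belonged to the same list. Slc7a13, an aspartate and glutamate transporter of the late proximal tubule, was at 448, 398 and 566 FPKM in control, 55.4, 60.4 and 61.7 FPKM in dbdb and 101, 115 and 156 FPKM in dbR libraries. The dbR libraries lay between the other groups without overlap, and both differences were called (against control log2 fold change -1.94, standard error 0.161, adjusted p = 5.13e-05, and against dbdb log2 fold change 1.04, standard error 0.161, adjusted p = 0.0282). The direct call was lost without dbR replicate 2 (adjusted p = 0.1197) or 3 and without dbdb replicate 1 or 2. It was also lost without a filter on low values and without the variance trend. Under upper-quartile or quantile scaling, and without control replicate 2 or 3, 1 member of the list was called higher.

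Of 7 tested genes with a female bias in the proximal tubule, 4 rose and 2 fell, 85.7% against 24.1% of all genes. The 2 falls were Slc22a7 and Cyp2a4, and the rises included Cyp4a14 and Slc22a29. Serum androgen was not among the measurements used here. Of 24 amino acid transport genes 8 rose and 6 fell (58.3% called). The neutral amino acid carrier Slc1a4 fell (-1.46, a call lost in its most abundant transcript) and the taurine carrier Slc6a6 rose (0.60). Without control replicate 3 or dbR replicate 1, 4 rose, and without dbR replicate 3, 5 rose.

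**Figure D4:**
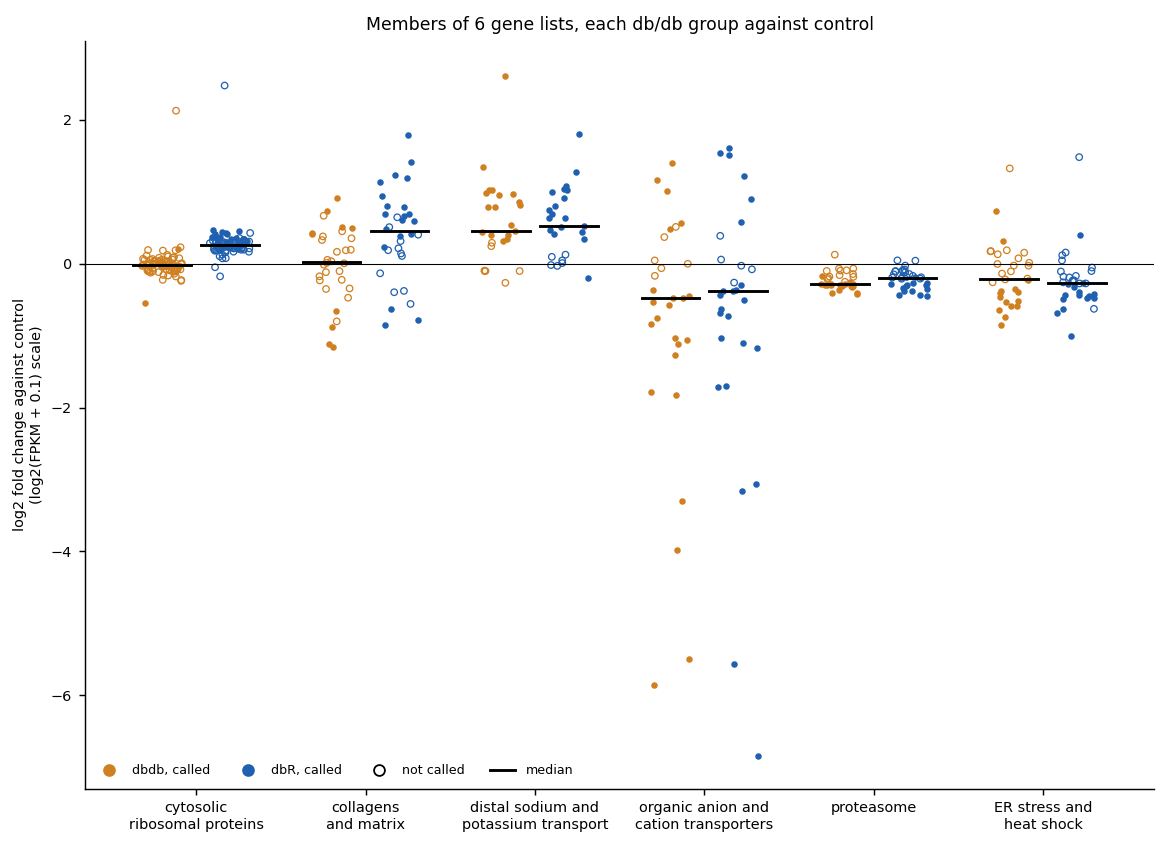
Log2 fold change against control of every tested member of 6 gene lists, for dbdb (orange) and dbR (blue) mice, on a linear axis. Filled dots passed the test, open dots did not, and black bars are medians, which for the matrix list are 0.02 in dbdb and 0.45 in dbR mice and for the ribosomal list -0.02 and 0.26.

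Of 25 tested sodium and potassium transport genes of the distal nephron, 18 rose and 1 fell in dbR against control, 76.0% against 24.1% of all genes, with a median log2 fold change of 0.52. In dbdb against control 18 rose and 0 fell, 72.0% against 26.4% of all genes. Slc12a3, the thiazide-sensitive sodium chloride cotransporter, read 112, 107 and 99.4 FPKM in control and 228, 238 and 208 FPKM in dbR libraries (log2 fold change 1.08, standard error 0.0732, adjusted p = 1.90e-05). Scnn1a, the α subunit of the epithelial sodium channel, read 16.8, 12.8 and 11.96 FPKM in control and 34.2, 32.8 and 33.1 FPKM in dbR libraries (log2 fold change 1.28, standard error 0.122, adjusted p = 0.000108). For both genes the lowest dbR library was close to 2-fold above the highest control library. Sgk1, the aldosterone-induced kinase that keeps the channel at the membrane, read 30.2, 35.3 and 35.4 FPKM in control and 78.6, 95.4 and 213 FPKM in dbR libraries (log2 fold change 1.800, standard error 0.334, adjusted p = 0.00401). All 3 dbR libraries were above control, with replicate 3 far above the other 2. Hsd11b2, which protects the mineralocorticoid receptor from glucocorticoid, rose (1.04). Umod, the uromodulin gene of the thick ascending limb, read 323, 238 and 269 FPKM in control and 289.5, 276 and 264 FPKM in dbR libraries and did not pass (adjusted p = 0.982).

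Of 24 genes of the collecting duct and of acid-base transport, 15 rose and 5 fell (83.3% called, against 24.1% of all genes), with a median of 0.42. The 5 falls were 3 without dbR replicate 2 or with sums equalised outside the mitochondrial genes. The vasopressin-regulated water channel Aqp2 (0.93, a call lost without control replicate 2 or dbR replicate 3), Aqp6 (1.35), the anion exchanger Slc4a1 (1.12) and the ammonium transporter Rhbg (1.18) rose. Aqp4, the basolateral water channel, fell (-1.21). The call of Slc4a4, the bicarbonate cotransporter of the proximal tubule (0.33), was lost under 10 of 17 alternatives. Of 12 medulla markers, 11 were tested and Slc14a2 was below the filter, and 5 rose and 3 fell (72.7% called). Their summed level was 470.8 to 594.4 FPKM in control and 542.2 to 598.9 FPKM in dbR libraries, which overlap, and the part of medullary tissue in these rises was not tested. The count of 5 rises was 1 without control replicate 3 and 2 to 3 without any other single control or dbR library.

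Calcium and vitamin D genes showed 6 rises and 0 falls of 18 (33.3% called, against 24.1% of all genes). Calb1, the calcium buffer of the distal convoluted tubule, read 44.8, 43.5 and 39.95 FPKM in control and 113, 140.2 and 119 FPKM in dbR libraries (log2 fold change 1.53, standard error 0.1403, adjusted p = 8.49e-05). The sodium-calcium exchanger Slc8a1 (1.35) and the calbindin S100g (1.19) rose with it. Cyp27b1, which makes active vitamin D, read 1.57, 3.03 and 3.202 FPKM in control and 14.8, 17.3 and 16.96 FPKM in dbR libraries (log2 fold change 2.67, standard error 0.313, adjusted p = 0.000336). The groups did not overlap in any of these genes. Cyp24a1, which degrades active vitamin D, rose too (2.102), a call lost without control replicate 3 or dbR replicate 2.

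In the renin-angiotensin list 1 of 14 tested genes rose and 3 fell, 28.6% against 24.1% of all genes. Ace, which makes angiotensin II, read 46.8, 42.3 and 48.99 FPKM in control and 13.7, 9.35 and 10.8 FPKM in dbR libraries (log2 fold change -2.03, standard error 0.124, adjusted p = 1.01e-05), and 11.4, 10.04 and 10.2 FPKM in dbdb libraries. Both db/db groups lay well below control and overlapped each other. Mas1, a receptor that opposes angiotensin II, fell (-2.23), but read from its most abundant transcript alone its sign turned and it did not pass. Ren1, the renin gene, read 32.01, 47.6 and 67.4 FPKM in control and 41.2, 56.6 and 52.8 FPKM in dbR libraries and did not pass (adjusted p = 0.835).

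Of 24 injury markers of the tubule 9 rose and 2 fell (45.8% called, against 24.1% of all genes), with a median log2 fold change of 0.48, and no fall was called without control replicate 1, dbR replicate 1 or dbR replicate 2. Osteopontin Spp1 read 411, 395 and 331 FPKM in control and 802, 927 and 851 FPKM in dbR libraries (log2 fold change 1.19, standard error 0.134, adjusted p = 0.000284), and clusterin Clu read 57.1, 56.01 and 50.6 FPKM in control and 112, 122 and 103 FPKM in dbR libraries (log2 fold change 1.04, standard error 0.07998, adjusted p = 3.64e-05). Neither gene overlapped between the groups. Fibrinogen γ, Fgg (1.31), and Lcn2, which encodes the urinary injury marker NGAL (1.76), rose from low levels. Havcr1, which encodes kidney injury molecule 1, was low throughout and was called lower, at 0.445, 0.386 and 0.713 FPKM in control and 0.204, 0.227 and 0.239 FPKM in dbR libraries (log2 fold change -0.89, standard error 0.277, adjusted p = 0.0415), a call lost under 8 of 16 alternatives. Vim, a marker of dedifferentiated tubule and of stroma, had a log2 fold change of 0.02 (adjusted p = 0.961), and the epithelial cadherin Cdh1 one of 0.06 (adjusted p = 0.554).

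Podocyte genes, expressed by the filtering cells of the glomerulus, rose in 7 of 23 and fell in 2 (39.1% called, against 24.1% of all genes), with a median of 0.20. The slit diaphragm genes Nphs1 (0.74) and Kirrel (0.995, a call lost in its most abundant transcript), the transcription factor Tcf21 (0.74, a call lost under 7 of 17 alternatives) and the matrix gene Npnt (0.52) rose. Nphs1 read 4.25, 3.13 and 3.08 FPKM in control and 5.81, 6.82 and 5.01 FPKM in dbR libraries (log2 fold change 0.74, standard error 0.149, adjusted p = 0.00597), without overlap.

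Of 32 collagen and matrix genes, 17 rose and 3 fell (62.5% called, against 24.1% of all genes) with a median log2 fold change of 0.45. Against control, dbdb mice had 6 rises and 4 falls (31.25% called, against 26.4% of all genes) with a median of 0.02. Tested directly between dbR and dbdb, 5 members were higher in dbR mice and 0 lower, where 0.564% of all genes were higher. The 5 became 1 without a filter on low values, with the replicate block, with the most abundant transcript or without the variance trend, and 2 with sums equalised outside the mitochondrial genes. They became 1 without any one of the dbR libraries or without dbdb replicate 1 or 2, 2 to 3 without control replicate 2 or 3, and 8 without dbdb replicate 3. Col6a2, a chain of the pericellular collagen VI, read 2.5995, 1.86 and 2.03 FPKM in control, 2.77, 2.74 and 3.43 FPKM in dbdb and 5.91, 6.93 and 4.92 FPKM in dbR libraries. Its dbR libraries were above both other groups, with called differences from control (log2 fold change 1.41, standard error 0.1601, adjusted p = 0.000285) and from dbdb (log2 fold change 0.96, standard error 0.1601, adjusted p = 0.0331), the latter lost under 9 of 19 alternatives (adjusted p = 0.158 without dbR replicate 2). Col6a1, the partner chain, read 4.13, 3.02 and 2.99 FPKM in control, 3.96, 3.93 and 5.08 FPKM in dbdb and 8.09, 9.32 and 6.84 FPKM in dbR libraries (dbR against control, log2 fold change 1.24, standard error 0.1601, adjusted p = 0.000577). Its direct difference from dbdb (0.89, adjusted p = 0.0433) was lost under 12 of 19 alternatives, among them leaving out any one of the dbR libraries (adjusted p = 0.186 without dbR replicate 2). The elastin crosslinker Loxl1 rose (1.18), and the metalloproteinase inhibitor Timp3, the most abundant of these genes, fell from 662, 790.3 and 727 FPKM in control to 422, 415 and 433 FPKM in dbR libraries (log2 fold change -0.78, standard error 0.08296, adjusted p = 0.000209). Fibronectin, Fn1, did not pass (0.51, adjusted p = 0.126). The 17 rises were 9 without control replicate 3, dbR replicate 1 or dbR replicate 2, and 11 without control replicate 2.

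All 15 endothelial markers were tested and none was at 0. Of these 5 rose and 0 fell (33.3% called, against 24.1% of all genes), with a median log2 fold change of 0.05, and their summed level was 219.5 to 244.5 FPKM in control, 200.1 to 217.4 FPKM in dbdb and 254.0 to 282.2 FPKM in dbR libraries. The dbR sums were above both other groups without overlap, and their part in the matrix rises was not tested. Endoglin, Eng (0.63), and the angiopoietin receptor Tek (0.46, a call lost in its most abundant transcript) rose. Without control replicate 1, control replicate 3 or dbR replicate 1, 2 markers rose, and without dbR replicate 2 or 3, 3 rose. In TGF-β and BMP signalling, 5 of 28 rose and 1 fell, 21.4% against 24.1% of all genes. Bmp4 (0.46, a call lost in its most abundant transcript) and the inhibitory Smad6 (0.63) rose and the receptor Tgfbr2 (-0.35) fell, and 2 to 3 members rose without control replicate 3, dbR replicate 1 or dbR replicate 2.

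Of 32 macrophage and lymphocyte markers 25 were tested, and 6 fell and 0 rose in dbR against control (median -0.65). The 24.0% called lies beside 24.1% of all genes, and 11.8% of all genes were lower. In these markers 15 fell and 0 rose in dbdb against control (median -1.05), where 13.4% of all genes were lower. The macrophage receptor Csf1r read 11.5, 9.503 and 13.5 FPKM in control, 3.62, 4.77 and 4.79 FPKM in dbdb and 5.67, 5.08 and 5.97 FPKM in dbR libraries (dbR against control, log2 fold change -1.02, standard error 0.145, adjusted p = 0.000946). All db/db libraries were below control. The pan-leukocyte phosphatase Ptprc (-0.91, a call lost in its most abundant transcript) and lysozyme Lyz2 (-0.59, a call lost without control replicate 1, dbR replicate 1 or dbR replicate 2) fell, and the adaptor Tyrobp did not pass (-0.45, adjusted p = 0.269). The summed level of the list was 68.7 to 82.9 FPKM in control, 28.3 to 45.7 FPKM in dbdb and 43.5 to 52.7 FPKM in dbR libraries. The count of falls was 2 to 3 without control replicate 1 or 2 or dbR replicate 1 or 3, and 10 when only the 6 dbR and control libraries were fitted. The summed level of 6 tested erythroid markers was 107.6, 10.7 and 26.3 FPKM in control and 16.998, 23.1 and 24.5 FPKM in dbR libraries, so that control replicate 1 stood apart. Their median log2 fold change was -0.78, and 0.14 without control replicate 1, where 2 leukocyte markers fell. The part of erythroid RNA in the leukocyte values was not tested. Of 46 antigen presentation and interferon genes, only Oas1a passed (-0.82, lower, a call lost under 5 of 16 alternatives), and B2m read 455, 332 and 288 FPKM in control and 271, 396 and 454 FPKM in dbR libraries. This list summed to 603.5, 661.5 and 3247.4 FPKM in the dbdb libraries, which entered the spread. With only the 6 dbR and control libraries fitted, 1 member was called.

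Of 30 chemokine and cytokine genes 2 rose and 5 fell, 23.3% against 24.1% of all genes. The epithelial chemokine Ccl28 (-2.14), the macrophage growth factor Il34 (-2.22) and the monocyte receptor Ccr2 (-1.03, a call lost under 9 of 17 alternatives) fell, and the stromal chemokine Cxcl12 rose from 31.8, 26.2 and 35.3 FPKM in control to 63.5, 74.5 and 61.9 FPKM in dbR libraries (log2 fold change 1.103, standard error 0.135, adjusted p = 0.000414). The dbR libraries did not overlap with control. Falls numbered 2 to 3 without any one of the control libraries or without dbR replicate 1. Complement genes split, with 6 of 27 higher and 4 lower (37.0% called). C3, the central component, read 7.47, 4.74 and 4.46 FPKM in control, 20.5, 28.6 and 30.4 FPKM in dbdb and 47.9, 39.7 and 48.7 FPKM in dbR libraries (dbR against control, log2 fold change 3.04, standard error 0.1998, adjusted p = 1.62e-05). Every db/db library was above control, and the difference between dbR and dbdb was not called (adjusted p = 0.0891). C7, a component of the membrane attack complex, rose (1.57), and Masp2 read 3.29, 1.75 and 4.16 FPKM in control and 0.0108, 0 and 0.239 FPKM in dbR libraries. Cfd, complement factor D, was at 1.64, 0.106 and 1.88 FPKM in control and listed at 0 in all 3 dbR libraries (adjusted p = 0.0108).

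Cfd is also a gene of fat cells. Of 12 adipocyte markers 6 were tested, 1 rose and 2 fell, where 12.3% of all genes were higher and 11.8% lower. Plin1, Lep, Retn, Cidea, Ucp1 and Adrb3 were below the filter. The sum of the adipocyte markers was 66.1 to 76.9 FPKM in control and 55.9 to 58.6 FPKM in dbR libraries. The part of fat cells in the fall of Cfd was not tested. Adiponectin, Adipoq, read 0.265, 0.121 and 0.161 FPKM in control and 0.515, 0 and 0.0723 FPKM in dbR libraries, close to 0 in both groups. Carbonic anhydrase 3, Car3, fell (-1.46).

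Of 16 glucocorticoid-responsive genes 10 rose and 1 fell (68.8% called, against 24.1% of all genes), with a median log2 fold change of 0.74, beside 12 rises, 2 falls and a median of 1.41 in dbdb against control, where 26.4% of all genes were called. In the direct test of dbR against dbdb 3 members fell and 0 rose, where 0.179% of all genes were lower. None of these 3 passed without a filter on low values, with the replicate block, without the variance trend or without dbR replicate 1, 2 or 3, and 1 to 2 passed without any one of the dbdb libraries. The transcription factor Zbtb16 read 1.43, 0.959 and 2.53 FPKM in control, 9.18, 11.01 and 13.2 FPKM in dbdb and 7.898, 6.71 and 6.33 FPKM in dbR libraries (dbR against control, log2 fold change 2.12, standard error 0.275, adjusted p = 0.000584). Both db/db groups were above control without overlap. Metallothionein Mt1 (1.12) and the phosphatase Dusp1 (1.22), with Sgk1, Per1 and Pdk4, were also members that rose. Of 6 adrenal cortex markers, 3 were tested, the defining Cyp11b1 and Cyp11b2 were at 0 in every library, and the sum was 0.923 to 1.15 FPKM in control and 1.32 to 2.39 FPKM in dbR libraries.

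Of 23 clock genes 10 rose and 3 fell, 56.5% against 24.1% of all genes. The repressor Cry1 read 0.971, 0.695 and 0.949 FPKM in control and 3.302, 4.18 and 3.45 FPKM in dbR libraries (log2 fold change 1.95, standard error 0.155, adjusted p = 4.17e-05), and 3.92, 4.41 and 5.13 FPKM in dbdb libraries. The db/db libraries were all above control. Per1 rose (0.95) and the nuclear receptor Nr1d1 fell (-0.84). The time of day at which each mouse was killed is not given in the sources used here, so that time and group cannot be told apart for these genes. Among 27 immediate-early genes 5 rose and 1 fell, 22.2% against 24.1% of all genes. Zfp36, which destabilises cytokine mRNAs (1.08), Myc (0.76, a call lost without dbR replicate 1) and Gadd45b (0.83, a call lost under 7 of 16 alternatives) rose, and Sphk1 did not pass (0.53, adjusted p = 0.0683, a call gained under 3 of 17 alternatives). Without dbR replicate 2 or 3, 3 rose.

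Of 31 ER stress and heat shock genes, which serve protein folding, 14 fell and 1 rose (median -0.27), and of 32 proteasome genes, which degrade proteins, 14 fell and 0 rose (median -0.19), where 11.8% of all genes were lower. The others in both lists, 16 and 18, did not pass. In dbdb against control 13 ER stress and heat shock genes and 19 proteasome genes fell, where 13.4% of all genes were lower. The chaperone Hspa8, the most abundant, read 905, 983 and 976 FPKM in control and 650.3, 775 and 722 FPKM in dbR libraries (log2 fold change -0.42, standard error 0.0923, adjusted p = 0.00937). Hsph1 (-1.01), Dnaja1 (-0.69), Dnajb1 (-0.62) and the ER chaperone Hspa5 (-0.49) fell too. Among proteasome subunits the changes were small and alike, with Psmc4 at 63.4, 59.5 and 68.5 FPKM in control and 46.3, 46.1 and 47.3 FPKM in dbR libraries (log2 fold change -0.45, standard error 0.0615, adjusted p = 0.000758) and Psmd13, Psmd14 and Psmd2 at log2 fold changes of -0.43, -0.43 and -0.38. These falls kept their direction under each of the 3 scalings tried, with 10 to 12 ER stress and heat shock genes and 11 to 13 proteasome genes lower.

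Cytosolic ribosomal protein genes rose in 24 of 81 and fell in 0, 29.6% against 24.1% of all genes called, with a median log2 fold change of 0.26, while dbdb against control gave 1 rise, 1 fall and a median of -0.02, where 26.4% of all genes were called. The direct comparison of dbR with dbdb called 2 of the 81 higher, where 0.564% of all genes were higher. It called 7 with upper-quartile scaling, 10 with quantile scaling and 4 with sums equalised outside the mitochondrial genes. It called 0 with the replicate block, without the variance trend or without dbR replicate 2 or 3 or dbdb replicate 2, and 6 without dbR replicate 1. Rpl36a read 258, 256 and 257 FPKM in control, 301, 262 and 240.3 FPKM in dbdb and 321, 357 and 371 FPKM in dbR libraries (dbR against control, log2 fold change 0.44, standard error 0.0876, adjusted p = 0.00554). The dbR libraries were above control by a small step. Rps28 rose by a similar amount (0.47, a call lost without control replicate 2, dbR replicate 2 or dbR replicate 3), and Rps27, the most abundant, did not pass (0.43, adjusted p = 0.0511, a call gained under 7 of 17 alternatives). The count depended on the processing, with 58 to 75 rises under the 3 scalings, 52 without dbR replicate 1, 3 without control replicate 2, dbR replicate 2 or dbR replicate 3, 11 without control replicate 1 and 14 without control replicate 3. It was 7 with the replicate block, 11 without the variance trend and 14 without a filter on low values. These genes have many near-identical copies in the genome, so the division of their reads is uncertain.

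None of the 13 mitochondrially encoded protein genes passed (limma), and 0 had an unadjusted p under 0.05. Of 78 nuclear genes of the respiratory chain 5 rose and 1 fell, 7.69% against 24.1% of all genes, with cytochrome c, Cycs, lower (-0.49) and the complex I subunit Ndufa7 higher (0.35). With the 3 scalings 12 to 37 of them rose, and 1 to 2 rose without any one of the control libraries or dbR replicate 2 or 3, and 8 without dbR replicate 1. Of 27 cell cycle genes 2 rose and 1 fell, 11.1% called, with the thymidine kinase Tk1 higher (0.69) and Mcm6 lower (-0.49, a call lost under 5 of 17 alternatives). Among erythroid markers only the kidney-expressed Slc4a1 rose, and globin Hbb-bs did not pass (-0.81, adjusted p = 0.488). Of 10 striated muscle markers 2 were tested and Pvalb, which the distal convoluted tubule also expresses, rose (0.81).

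The next genes had the smallest p between dbR and dbdb mice among those called in dbR against control. Both tests share the dbR libraries, so this choice favours genes with extreme dbR levels. Genes not called against control could not enter, and the patterns below follow in part from the choice. Ecm1 (chromosome 3, 95734147 to 95739569 in GRCm38), a secreted matrix glycoprotein, led these chosen genes. It read 26.8, 21.2 and 23.1 FPKM in control, 30.8, 36.9 and 33.1 FPKM in dbdb and 81.4, 84.3 and 78.6 FPKM in dbR libraries. The 3 groups did not overlap, and dbR was above dbdb (log2 fold change 1.28, standard error 0.0921, adjusted p = 0.00113, limma) as well as above control (log2 fold change 1.78, standard error 0.0921, adjusted p = 5.65e-06). Apoc1, a lipoprotein component and inhibitor of lipid uptake, read 2.76, 3.67 and 3.46 FPKM in control, 5.37, 8.61 and 6.597 FPKM in dbdb and 15.3, 18.5 and 15.9 FPKM in dbR libraries (against dbdb, log2 fold change 1.28, standard error 0.165, adjusted p = 0.0205), again with dbR highest. The direct call of Apoc1 was lost without dbR replicate 2 (adjusted p = 0.109) or 3 and without the variance trend.

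The basement membrane gene Nid1 (0.82 against control and 0.77 against dbdb), the pericyte receptor Pdgfrb (0.41 and 0.69), the glypican Gpc3 (0.75 and 0.65) and the thiamine transporter Slc19a3 (0.46 and 0.70) were higher in dbR mice than in both other groups. None of these 4 was called in dbdb against control. Apob, the structural protein of very low density lipoprotein, and Noct, the clock-controlled gene of nocturnin, had their highest level in dbdb mice and an intermediate one in dbR mice. Noct read 13.6, 12.8 and 11.9 FPKM in control, 54.7, 37.5 and 45.9 FPKM in dbdb and 16.9, 17.9 and 22.97 FPKM in dbR libraries (against control log2 fold change 0.58, standard error 0.144, adjusted p = 0.0164, and against dbdb log2 fold change -1.25, standard error 0.144, adjusted p = 0.01402). Esm1, an endothelial proteoglycan, and the neprilysin gene Mme lay between on the low side, with log2 fold changes of -0.51 and -0.43 in dbR and of -1.36 and -0.78 in dbdb mice, all called. Without dbR replicate 2 the adjusted p of the direct difference lay between 0.0625 (Apob) and 0.116 (Gpc3) in these 8 genes. The call was also lost without dbR replicate 3 in Slc19a3, Pdgfrb, Gpc3, Apob, Esm1 and Mme and without dbdb replicate 1 or 2 in Nid1, Pdgfrb and Mme. With the replicate block it was lost in Nid1, Pdgfrb, Gpc3, Slc19a3 and Mme, and without the variance trend in these genes and Apob. Mme also lost it with sums equalised outside the mitochondrial genes. Against control, the call of Pdgfrb was lost without dbR replicate 2 and that of Noct without control replicate 3 or dbR replicate 3.

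Npr3, the clearance receptor for natriuretic peptides, and Adgrg4, an adhesion receptor, were named in the fixed set and not by this choice. Both were called in dbdb against control and not in dbR against control. Npr3 read 5.35, 6.25 and 6.24 FPKM in control, 2.62, 2.83 and 3.01 FPKM in dbdb and 6.21, 6.23 and 6.14 FPKM in dbR libraries. The dbR libraries overlapped with control (log2 fold change 0.06, standard error 0.0895, adjusted p = 0.664) and all lay above dbdb (log2 fold change 1.11, standard error 0.0895, adjusted p = 0.00164). A test that did not pass does not show that dbR and control levels were equal. For Adgrg4 the log2 fold changes were -0.24 in dbR (adjusted p = 0.0953) and -1.14 in dbdb mice against control, and the direct difference was called (adjusted p = 0.0103), but not without dbR replicate 2 (adjusted p = 0.0688).

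**Figure D5:**
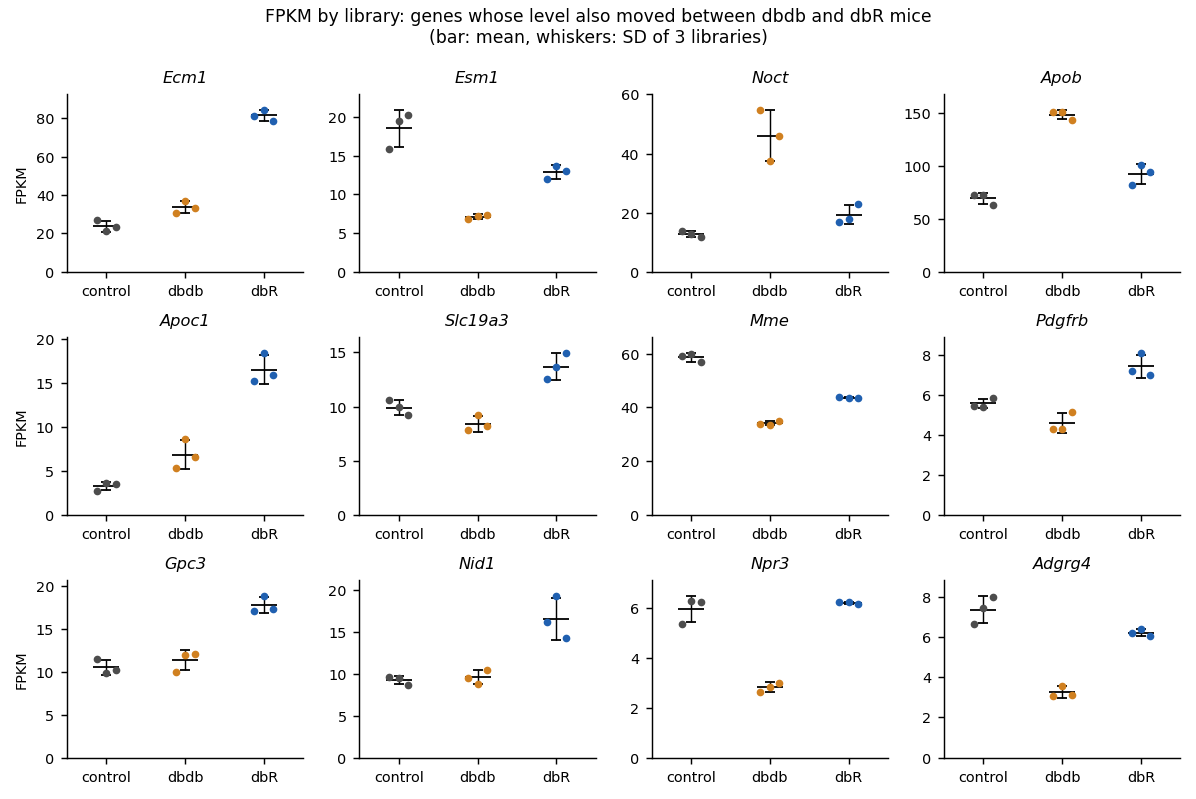
FPKM (linear axis from 0) of 12 genes in control, dbdb and dbR libraries, chosen by the direct dbR against dbdb test or fixed by name, with a dot per library, a bar at the mean and whiskers of 1 SD (n = 3). Ecm1 and Apoc1 are highest in dbR mice, Noct and Apob highest in dbdb mice, and the 3 dbR libraries of Npr3 (6.21, 6.23 and 6.14 FPKM) sit at the control level.

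The direct repeat bound by PPAR and RXR (2 copies of AGGNCA separated by any 1 base, on either strand) was searched in 300-base promoter windows of RefSeq (250 bases before to 50 after each start, GRCm38.p6). It was present in 122 of 27025 genes with a window (0.451%), in 1 of the 19 tested PPAR target genes that had one, and in 0 of the 4 that rose. Among tested genes with a window it was present in 36 of 10881 (0.331%), among them 5 of 1334 called higher and 4 of 1300 called lower. A match is a description of these letters, and its absence from this window says nothing about binding elsewhere.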

How the data were processed

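Renal cortex RNA of 9 mice, 3 in each group by the labels, was sequenced after ribosomal RNA removal with a strand-specific kit. The authors aligned reads to GRCm38.p2 with TopHat2 2.0.9 and assembled and quantified transcripts with Cufflinks 2.1.1 (versions from the submitters' processing notes), and the deposited values are FPKM per transcript, not counts. FPKM keep no read counts, so no counting intervals are given, and precision rests on the spread of 3 libraries a group.

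FPKM were summed per gene and tested as log2(FPKM + 0.1) with limma 3.58.1 in R 4.3.3, in 1 model of 3 groups over 9 libraries (residual degrees of freedom 6) with a variance trend, two-sided and Benjamini-Hochberg adjusted over 14537 genes. Fold changes are therefore on the log2(FPKM + 0.1) scale, which understates the change of low genes. The study itself used the test in Cufflinks, which needs the reads. Each library was from 1 mouse, and p-values measure the spread between these mice. Coordinates are those of GENCODE M21 (GRCm38). Tables and figures used python 3.11.15, numpy 2.4.6, pandas 2.3.3 and matplotlib 3.10.9. Tested on simulated data for dbR against control over 14537 genes, the model recovered 59.0, 82.0 and 94.5% of 200 genes changed by log2 0.5, 1 and 2, with 16 false calls of 487. The simulated noise was independent between genes, with no error shared by a whole library. It therefore cannot show how scaling or a single library affects false calls.

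The gene lists, the comparison and the rule for named genes were chosen with earlier results of these data known. Named were the 12 largest called rises and falls without overlap, the 8 smallest adjusted p, the 10 called genes with the smallest p between dbR and dbdb, in each list up to 4 called members with the largest change and the most abundant member (each with a group mean of at least 1 FPKM), and a fixed set that includes Lepr, Pparg, Slc5a2 and Npr3. Rpl12 and Hsp90aa1, named for a library that stands apart, were chosen after their values were seen. Results for some named genes are not reported here. The alternatives were other pseudocounts (1 and 0.01), filters (none, or a mean of 1), scalings (upper quartile, quantile, non-mitochondrial sum), the dbR and control libraries alone, a replicate block, the most abundant transcript of each gene, no variance trend, and leaving out each library.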

Additional observations from a re-analysis of the deposited data

How the results depend on the processing

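The number of genes called in dbR against control lay between 3030 and 3546 under the alternatives that kept all libraries of both groups, and between 2479 (without control replicate 3) and 2865 (without control replicate 1) when 1 library was left out, with 1274 to 1534 higher and 1205 to 1386 lower. The split moved under some scalings. Genes called higher made up 51.1% of calls as deposited, 51.4% with quantile scaling, 62.3% with upper-quartile scaling (1336 lower) and 70.5% with sums equalised outside the mitochondrial genes (1006 lower), and the median log2 fold change of all genes moved to 0.05 and 0.09 in the latter 2, so that small changes of abundant genes are relative to the scaling. The number called between dbR and dbdb was less stable, at 108 as reported, 31 without a filter, 166 with a mean of at least 1 FPKM, 203 with upper-quartile and 234 with quantile scaling. Alternatives added after seeing the data gave 23 with the replicate block, 49 with the most abundant transcript and 18 without a variance trend, and 2 (without dbR replicate 2) to 141 (without dbdb replicate 3) when 1 library was left out. The causes were not tested. Of 230 named genes 191 were called, 154 of them under each of the 16 or 17 settings in which they were tested, 36 lost the call in at least 1, and Mas1 reversed, to a log2 fold change of 0.82 (adjusted p = 0.412, limma) in its most abundant transcript alone. Among genes described as not called, Leprot, Cyp4a31, Fn1 and Tyrobp each gained a call under 1 of 17 settings. With the replicate number as a block 3030 genes were called. The numbers did not pair the mice, since the deviations of same-numbered control and dbR libraries correlated at -0.0150, 0.0043 and -0.0081 across genes, so the block is not a paired analysis. Without read counts, depth limits what can be said of genes near 0.1 FPKM.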
